A study of Mus musculus with 12 samples.

Results

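The 10 genes described here make, break down or bind hyaluronan, the long unsulphated sugar polymer of the pericellular matrix. They were taken by name as a pathway, with earlier results of these data known, and were read from a table of raw read counts for 21556 genes. They are Ugdh, which encodes the enzyme that supplies a sugar precursor, the synthase genes Has1, Has2 and Has3, the breakdown genes Cemip, Tmem2, Hyal1 and Hyal2, the receptor gene Cd44 and Tnfaip6, which encodes a protein that binds hyaluronan and modifies it. RNA was sequenced in 12 libraries of primary fibroblasts from mouse abdominal skin, with 3 libraries in each of 4 groups. WT cells came from C57BL/6 mice and KO cells from mice of the strain B6.129-Nox4tm1Kkr/J, which carry a deletion in Nox4, the gene of a NADPH oxidase that makes hydrogen peroxide. The cells of all groups were starved of serum for 24 h. They were then left unstimulated for WT control and KO control, or given 10 ng/ml TGF-β2 for 24 h for WT TGF-β2 and KO TGF-β2. The deletion is in the germ line and so is present in every KO cell, the KO strain carries DNA of its donor strain around the gene, and WT and KO mice were bred as separate litters from related parents. The age of the mice that gave the cells and the number of mice behind each library are not given in the sources used here. The submitters call the 3 libraries of a group biological replicates. Where libraries of a group came from the same isolation, p-values measure only the spread between cultures.

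Hyaluronan is built at the plasma membrane by Has1, Has2 and Has3, which join glucuronic acid and N-acetylglucosamine from their UDP-sugars and push the growing chain out of the cell. Outside the cell the chains are cut by hyaluronidases and by CEMIP and TMEM2, and they are held and sensed through receptors such as CD44. In skin the polymer binds water and surrounds dermal fibroblasts, and its turnover is fast. TGF-β is known as a regulator of hyaluronan production in fibroblasts.

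Levels between genes were compared as RPKM, the read count divided by the length of the merged exons and by the library total, which corrects for the length of the gene. Totals per library were between 35118344 and 43796260 counted reads. Differences between groups were tested with edgeR's quasi-likelihood test on the raw counts of all genes with a mean of at least 1 RPKM in at least 1 of the groups compared. A gene was called where its p-value, adjusted over all genes tested (Benjamini-Hochberg), was under 0.05. Of the 10 genes, 8 passed the RPKM limit in every comparison, and Has3 and Tnfaip6 passed it in none. Those 2 were compared by a two-sided exact permutation test, in which 3 libraries against 3 cannot give a p-value below 0.1.

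Fibroblast markers were present in all groups, with 8 of 8 at a mean of at least 1 RPKM. Their summed level was 5466 to 6186 RPKM in WT control, 4092 to 5159 RPKM in WT TGF-β2, 5075 to 6956 RPKM in KO control and 4312 to 5492 RPKM in KO TGF-β2. With TGF-β2, 2 of the 8 fell in WT and 3 in KO, among them Pdgfra (to 0.0983 of control in WT and 0.127 in KO) and Col3a1 (to 0.440 and 0.529). Over all genes tested, 12.2% were called lower in WT and 14.9% in KO. Markers of pericytes and smooth muscle summed to 39.4 to 58.3 RPKM in WT and 56.4 to 79.1 RPKM in KO, where Cspg4 rose in both genotypes (4.58-fold in WT and 3.91-fold in KO) and Myh11 fell in WT (to 0.456). Endothelial markers summed to at most 5.38 RPKM, with 1 of 4 tested and not called, and adipocyte markers to at most 5.58 RPKM. Among the latter, Fabp4 passed the RPKM limit in WT only through the control group, and its WT value (0.236 of control) is a description. Keratinocyte, melanocyte and Schwann, and skeletal muscle markers were near 0. The part of these markers in the results below was not tested. The summed level of 6 macrophage markers was between 11.6 and 107 RPKM and was highest in replicate 3 of WT and replicate 1 of KO, with and without TGF-β2. In bulk samples, fewer cells of a type and less RNA per cell cannot be told apart. Smad7 and Ccn2, known targets of TGF-β, rose with TGF-β2 in both genotypes, and Acta2 was not called in either (log2 fold change 0.13 in WT and -0.06 in KO). Nox4 reads were also present in KO, at 102 to 207 reads per library in control and 782 to 1175 after TGF-β2, beside 203 to 398 and 1314 to 2471 in WT, and whether they come from the undeleted part of the gene was not tested. Some libraries stood apart from their groups. WT TGF-β2 replicate 2 differed from the other WT TGF-β2 libraries by a chi-square per gene of 119 and 147, against 28.9 between those libraries. WT control replicate 3 differed from the others of its group by 50.9 and 62.3, against 14.4 between those. Replicate 3 of KO differed from the others of its group by 67.8 and 88.8 in control and by 79.5 and 118 after TGF-β2. Without WT control replicate 3 the WT log2 fold changes of TGF-β2 over control were 1.71 for Has2, -1.92 for Cemip and 0.56 for Tmem2.

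The 10 genes differed widely in level. Cemip, Cd44 and Ugdh were abundant, at the 97.7th, 97.5th and 92.3rd percentile of the mean level over the 12 libraries among 10551 genes with at least 1 RPKM. Has2, Tmem2 and Hyal2 lay at percentiles 81.8, 68 and 64, and Has1 and Hyal1 at 23.3 and 11.5. Has3 had between 9 and 75 reads per library and Tnfaip6 between 19 and 87. The order of mean RPKM in WT control, from Cemip (248 ± 18.5, SD, n = 3) through Cd44 (133 ± 18.9) and Ugdh (72.4 ± 5.45), had no overlap between these 3 neighbours. Has2 (14.9 ± 1.21), Tmem2 (14.7 ± 1.16) and Hyal2 (13.4 ± 0.571) lay close together, and Tmem2 overlapped both others. The lowest Has2 library (13.97 RPKM) was just above the highest Hyal2 library (13.93 RPKM). Has1 (3.78 ± 0.133) and Hyal1 (2.32 ± 0.566) followed, then Tnfaip6 (0.951 ± 0.111) and Has3 (0.201 ± 0.0788).

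**Figure D1:**
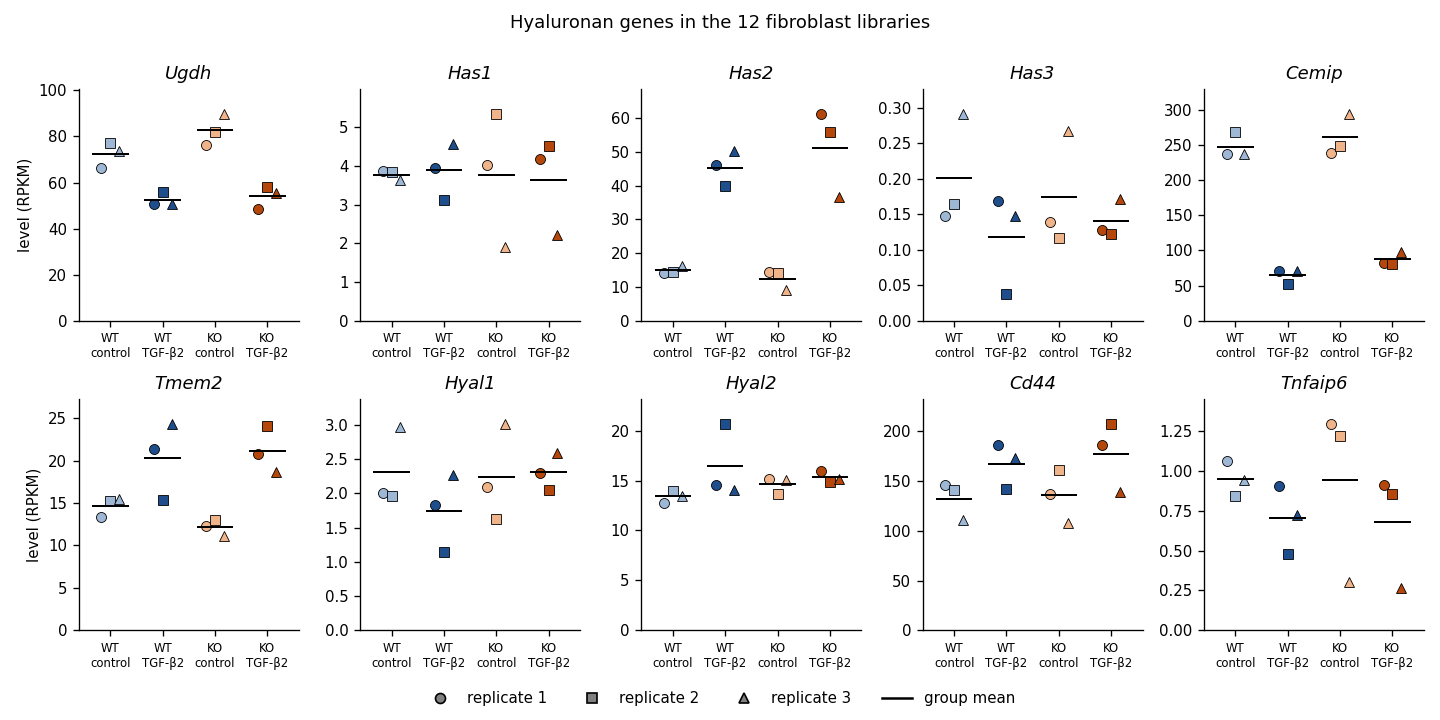
Level of each of the 10 genes in RPKM (vertical axes, linear from 0 and scaled per gene) in the 4 groups, with 1 symbol per library shaped by replicate number and a line at the group mean. Has2 moved up and Cemip and Ugdh moved down with TGF-β2 in both genotypes, and KO replicate 3 (triangles) was lowest for Has1, Has2, Cd44 and Tnfaip6 in both KO groups.

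TGF-β2 raised the RNA of the main synthase and lowered that of the main breakdown gene. In WT, Has2 rose 3.13-fold, Cemip fell to 0.269 of its control level and Ugdh fell to 0.745 of it, so that 3 of the 8 tested genes were called, 1 higher and 2 lower. Over all 10743 genes tested in WT, 22.6% were called, 10.4% higher and 12.2% lower. In KO the same directions were seen, with Has2 at 4.35-fold, Cemip at 0.354 and Ugdh at 0.694 of control, and Tmem2 rose as well, so that 4 of 8 were called, 2 higher and 2 lower. Over all 10809 genes tested in KO, 30% were called, 15.1% higher and 14.9% lower. The median log2 fold change of the 8 genes was 0.21 in WT and 0.14 in KO, beside 0.00 and -0.01 over all genes tested. With a fold of at least 2 as a further condition, Has2 and Cemip were called in each genotype, beside 7.72% of all genes in WT and 6.8% in KO. The WT and KO comparisons share no library.

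Ugdh encodes UDP-glucose dehydrogenase, which makes the UDP-glucuronic acid used for hyaluronan and also for other glycosaminoglycans. Its level was 66.3, 77.0 and 73.7 RPKM in WT control and 50.7, 56.0 and 50.7 RPKM in WT TGF-β2. In KO it was 76.3, 82.1 and 89.8 RPKM in control and 48.4, 58.2 and 55.6 RPKM after TGF-β2. Every stimulated library lay below every control library of its genotype. The log2 fold change was -0.42 (SE 0.09, edgeR adjusted p = 0.0179) in WT and -0.53 (SE 0.09, edgeR adjusted p = 0.0113) in KO. The WT call was lost without WT control replicate 2 (edgeR adjusted p = 0.0790), without WT control replicate 3 (0.0568) and without WT TGF-β2 replicate 1 (0.0687), while the value stayed between -0.35 and -0.43 in these fits.

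Has2 encodes the synthase that makes most long-chain hyaluronan in fibroblasts. It had 14.0, 14.5 and 16.3 RPKM in WT control and 46.0, 39.8 and 50.2 RPKM in WT TGF-β2. In KO the control libraries had 14.3, 14.0 and 9.12 RPKM and the stimulated libraries 61.2, 56.0 and 36.6 RPKM. The groups were far apart in both genotypes, and KO replicate 3 was the lowest of its group with and without TGF-β2. The log2 fold change was 1.65 (SE 0.12, edgeR adjusted p = 0.000595) in WT and 2.12 (SE 0.27, edgeR adjusted p = 0.00509) in KO. Set against the control library of the same number, as TMM-scaled CPM (counts divided by the scaled library total), Has2 was 4.63, 4.33 and 4.42 times higher in KO replicates 1, 2 and 3, although the level of replicate 3 was lower at both ends. In WT these ratios were 3.48, 2.74 and 3.33, lowest in replicate 2, whose stimulated library stood apart, and without that library the WT value was 1.74. Without both libraries of KO replicate 3 the KO value was 2.13. Replicate numbers go with the library across conditions in KO, where same-numbered libraries deviated together, and the fit with the number as a block reduced the SE of Has2 in KO to 0.05.

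Has1, which encodes the weakest of the synthases, did not follow Has2. It had 3.86, 3.84 and 3.62 RPKM in WT control and 3.96, 3.13 and 4.58 RPKM in WT TGF-β2. The KO control libraries had 4.03, 5.34 and 1.90 RPKM and the KO TGF-β2 libraries 4.17, 4.52 and 2.22 RPKM. The groups overlapped in both genotypes. The log2 fold change was 0.08 (95% confidence interval -0.34 to 0.50, edgeR) in WT and 0.03 (-1.04 to 1.10) in KO. The KO interval is wide, and the KO value moves with single libraries, among them those of KO replicate 3, the lowest at both conditions. Without both libraries of KO replicate 3 the KO value was -0.026, and it was -0.29 without the control library alone and 0.29 without the stimulated one. It was 0.39 without KO control replicate 2, the highest of its group. With the replicate block it was 0.08 (SE 0.12). The WT value was 0.23 without WT TGF-β2 replicate 2.

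Has3, whose product makes shorter chains, was near the limit of what these libraries show. It had 33, 40 and 75 reads in WT control, 44, 9 and 35 in WT TGF-β2, 34, 31 and 62 in KO control and 35, 34 and 46 in KO TGF-β2. The highest Has3 level was 0.292 RPKM and the lowest 0.0374 RPKM, in WT TGF-β2 replicate 2. The exact permutation p-value was 0.5 for TGF-β2 in WT and 0.8 in KO. The gene shares 5.5% of its merged exon bases with Chtf8 on the other strand, and whether counting used the strand is not stated, so part of these few reads could belong to that gene.

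Has2 thus made up most of the synthase RNA at the start and more of it after stimulation. Its share of the summed RPKM of the 3 synthases was 78.9% ± 1.53 (SD, n = 3) in WT control and 91.9% ± 0.643 in WT TGF-β2. In KO the share was 76.7% ± 4.46 in control and 93.2% ± 0.786 after TGF-β2. The summed level itself went from between 18.0 and 20.2 RPKM to between 43.0 and 54.9 RPKM in WT, and from between 11.3 and 19.4 RPKM to between 38.9 and 65.5 RPKM in KO.

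**Figure D2:**
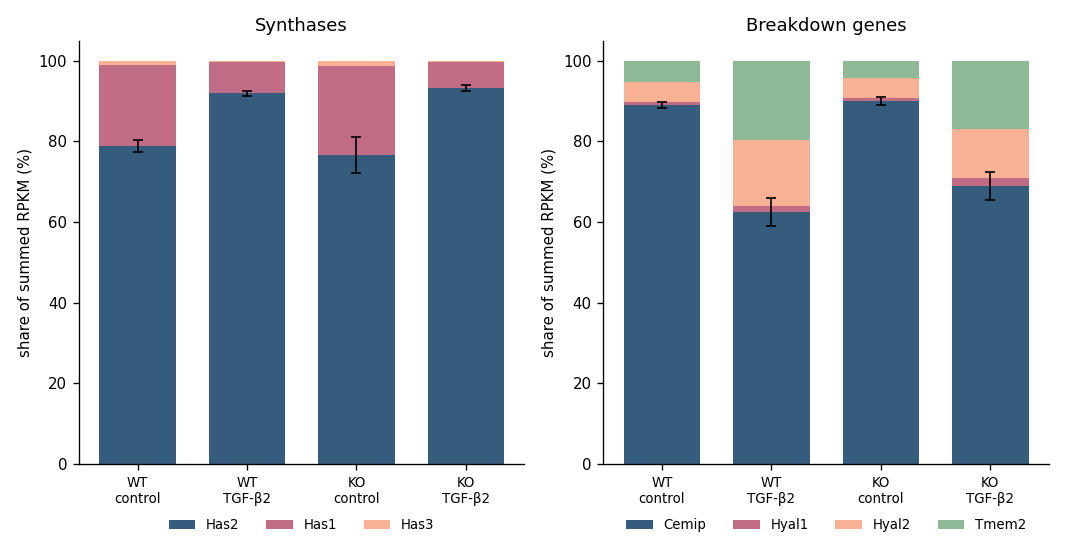
Mean share (%) of each gene in the summed RPKM of the 3 synthases (left) and of the 4 breakdown genes (right) in the 4 groups of 3 libraries, with error bars of 1 SD on the share of Has2 and of Cemip. Has2 went from 78.9% to 91.9% of synthase RPKM in WT, and Cemip from 89.0% to 62.4% of breakdown RPKM.

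Cemip encodes a protein that is needed for the cutting of hyaluronan by skin fibroblasts. It was the most abundant of the 10 genes in control cells, at 237, 269 and 237 RPKM in WT and 239, 249 and 294 RPKM in KO. After TGF-β2 it had 70.8, 52.5 and 70.9 RPKM in WT and 82.2, 81.0 and 98.1 RPKM in KO. The stimulated libraries were all far below the control libraries, and WT TGF-β2 replicate 2 was the lowest of the 12. The log2 fold change was -1.89 (SE 0.16, edgeR adjusted p = 0.000918) in WT and -1.50 (SE 0.11, edgeR adjusted p = 0.00158) in KO. Without WT TGF-β2 replicate 2 the WT value was -1.75, and without both libraries of KO replicate 3 the KO value was -1.50. Against the control library of the same number, the KO ratios were 0.372, 0.352 and 0.367.

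Tmem2 encodes a cell-surface protein related to CEMIP, also described as a hyaluronidase, and it is listed as Cemip2 in the annotation. It moved the other way. It had 13.4, 15.3 and 15.5 RPKM in WT control and 21.4, 15.4 and 24.4 RPKM in WT TGF-β2. In KO it had 12.3, 13.0 and 11.1 RPKM in control and 20.8, 24.1 and 18.7 RPKM after TGF-β2. The KO groups did not overlap, and in WT replicates 1 and 3 were higher after TGF-β2 whereas replicate 2 stayed at the control level. The log2 fold change was 0.89 (SE 0.12, edgeR adjusted p = 0.00588) in KO and 0.51 (SE 0.18, edgeR adjusted p = 0.0823) in WT. Without WT TGF-β2 replicate 2 the WT value was 0.69 (SE 0.08, edgeR adjusted p = 0.00480), and Tmem2 was also called in WT by DESeq2 (adjusted p = 0.0356) and by the edgeR fit over all 12 libraries (adjusted p = 0.0341).

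Hyal2 encodes a membrane-anchored hyaluronidase and Hyal1 the lysosomal one that finishes the fragments. Hyal2 had 12.8, 13.9 and 13.5 RPKM in WT control and 14.5, 20.7 and 14.1 RPKM in WT TGF-β2. In KO it had 15.1, 13.6 and 15.1 RPKM in control and 16.0, 14.8 and 15.1 RPKM after TGF-β2. The difference was small apart from WT TGF-β2 replicate 2, with a log2 fold change of 0.33 (SE 0.15, edgeR adjusted p = 0.162) in WT, 0.15 without that library, and 0.15 (SE 0.06, edgeR adjusted p = 0.110) in KO. With the replicate block, Hyal2 was called in KO (log2 fold change 0.15, SE 0.05, edgeR adjusted p = 0.0361).

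Hyal1 had 2.01, 1.97 and 2.97 RPKM in WT control and 1.83, 1.14 and 2.27 RPKM in WT TGF-β2. In KO it had 2.09, 1.62 and 3.02 RPKM in control and 2.30, 2.06 and 2.59 RPKM after TGF-β2. The groups overlapped, with a log2 fold change of -0.36 (SE 0.29, edgeR adjusted p = 0.399) in WT and 0.14 (SE 0.23, edgeR adjusted p = 0.677) in KO. The WT value was -0.12 without WT TGF-β2 replicate 2 and -0.14 without WT control replicate 3. The KO value was 0.31 without both libraries of KO replicate 3, 0.39 without the control library alone and 0.05 without the stimulated one. Of the merged exon bases of Hyal1, 50.8% are shared with Naa80 and 4.2% with Hyal3, on the same strand, so its counts are uncertain.

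Among the 4 breakdown genes, Cemip made up 89.0% ± 0.798 of the summed RPKM in WT control and 62.4% ± 3.48 after TGF-β2. In KO it made up 89.9% ± 0.978 and 69.0% ± 3.45. The summed level went from between 265 and 300.1 RPKM to between 89.8 and 112 RPKM in WT, and from between 269 and 324 RPKM to between 121 and 134 RPKM in KO. The ratio of Cemip to Has2 RPKM was 16.9, 18.5 and 14.6 in WT control and 1.54, 1.32 and 1.41 in WT TGF-β2. In KO it was 16.7, 17.8 and 32.3 in control and 1.34, 1.45 and 2.68 after TGF-β2. The ratio was highest in KO replicate 3 on both sides, where Has2 was low and Cemip high.

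**Figure D3:**
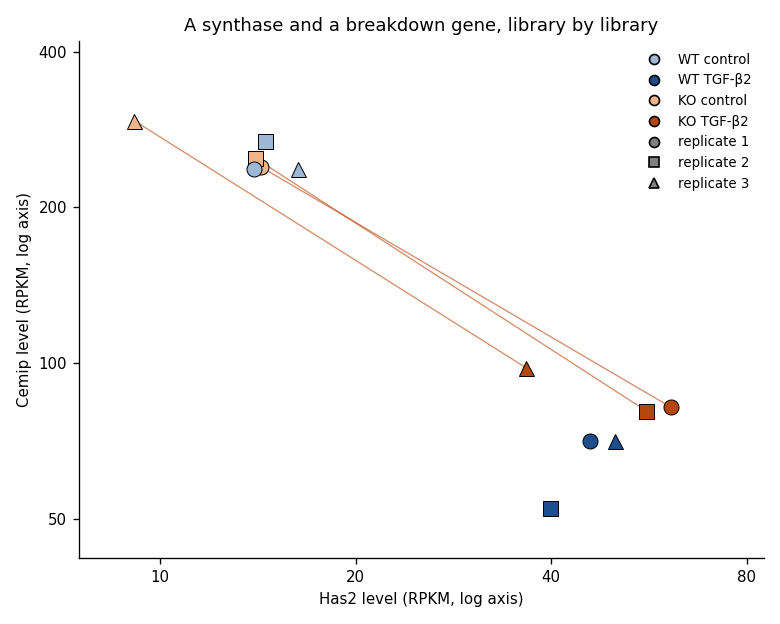
Has2 level against Cemip level in RPKM (both axes logarithmic) in the 12 libraries, coloured by group and shaped by replicate number, with lines joining the KO libraries of the same number. Control libraries lay at 9.12 to 16.3 RPKM of Has2 and stimulated libraries at 36.6 to 61.2 RPKM, with Cemip at 237 RPKM or more in the first and at most 98.1 RPKM in the second.

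Promoter sequence was looked up in RefSeq (GRCm38.p6) and was found for 7 of the 10 genes, but not for Has2, Has3 or Tmem2. The 250 bases before the start are printed for Cemip and Ugdh, which both fell, and for Has1, which was not called in any comparison. Capitals mark CAGAC, the box bound by SMAD proteins of the TGF-β pathway, on either strand (GTCTG on the other). The letters of an AP-1 site (TGANTCA) were searched on both strands as well.
Cemip, chr7:84086506-84086755, minus strand: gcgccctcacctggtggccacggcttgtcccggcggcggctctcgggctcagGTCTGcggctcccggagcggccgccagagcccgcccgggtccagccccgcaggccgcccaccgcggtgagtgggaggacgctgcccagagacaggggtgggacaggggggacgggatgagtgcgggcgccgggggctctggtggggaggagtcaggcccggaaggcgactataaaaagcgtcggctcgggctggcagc
Ugdh, chr5:65435843-65436092, minus strand: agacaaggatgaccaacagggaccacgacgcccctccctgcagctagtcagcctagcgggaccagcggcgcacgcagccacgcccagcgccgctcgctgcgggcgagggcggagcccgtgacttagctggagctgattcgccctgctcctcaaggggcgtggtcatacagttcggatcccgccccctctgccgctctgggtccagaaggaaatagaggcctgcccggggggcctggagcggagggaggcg
Has1, chr17:17855189-17855438, minus strand: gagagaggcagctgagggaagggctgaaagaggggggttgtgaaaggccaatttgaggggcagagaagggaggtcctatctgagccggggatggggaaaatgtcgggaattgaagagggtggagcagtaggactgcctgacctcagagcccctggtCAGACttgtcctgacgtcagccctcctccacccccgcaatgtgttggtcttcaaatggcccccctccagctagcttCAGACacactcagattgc
The Cemip window held 1 CAGAC match (on the other strand, 198 to 194 bases before the start), the Ugdh window 0 and the Has1 window 2. Of 32851 promoter entries, 42.2% held at least 1 such match in a window of this length and 6.7% an AP-1 match. None of the 3 windows held an AP-1 match, and so the motifs did not overlap there. Among the windows not printed, that of Tnfaip6 held an AP-1 match and a CAGAC match. The windows of Cemip and Ugdh were rich in G and C, at 75.2% and 69.2%, and that of Has1 held 58%. A match is only a description of the letters.

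Cd44 encodes the main cell-surface receptor for hyaluronan. It had 146, 141 and 111 RPKM in WT control and 186, 142 and 174 RPKM in WT TGF-β2. In KO it had 137, 162 and 108 RPKM in control and 186, 208 and 139 RPKM after TGF-β2. The groups overlapped in both genotypes, with KO replicate 3 lowest of its genotype at both conditions. The log2 fold change was 0.38 (SE 0.17, edgeR adjusted p = 0.161) in WT and 0.47 (SE 0.21, edgeR adjusted p = 0.139) in KO. Within KO numbers the ratio was 1.47, 1.39 and 1.42, and Cd44 was called in KO with the replicate block (log2 fold change 0.48, SE 0.05, edgeR adjusted p = 0.00129) and without both libraries of KO replicate 3 (0.48, SE 0.11, edgeR adjusted p = 0.0312). The WT ratios of same-numbered libraries were 1.35, 1.01 and 1.69, where replicate 2 again showed the smallest. With the block, 6 of the 8 tested genes were called in KO, 4 higher and 2 lower, beside 54% of all genes tested. Without both libraries of KO replicate 3, 5 of 9 tested genes were called (Tnfaip6 passed the RPKM limit in this fit and was not called), beside 39.3% of all, and without WT TGF-β2 replicate 2, 4 of 8 in WT, beside 31.6%.

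Tnfaip6, whose product TSG-6 transfers protein chains onto hyaluronan during inflammation, was low in these cells. It had 1.07, 0.844 and 0.943 RPKM in WT control and 0.904, 0.481 and 0.723 RPKM in WT TGF-β2. In KO it had 1.30, 1.22 and 0.306 RPKM in control and 0.913, 0.855 and 0.264 RPKM after TGF-β2. Levels overlapped between conditions, and both libraries of KO replicate 3, with 19 reads each, were far below the others. The exact permutation p-value was 0.3 for TGF-β2 in WT and 0.5 in KO.

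**Figure D4:**
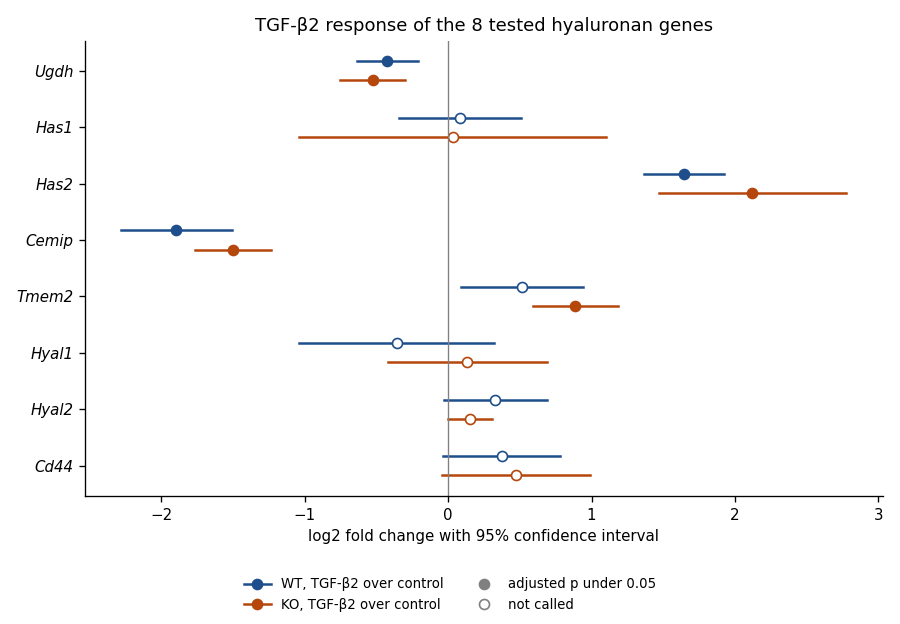
Log2 fold change of TGF-β2 over control with its 95% confidence interval (edgeR, 3 libraries against 3) for the 8 tested genes, in WT (blue) and KO (orange). Filled points have an adjusted p under 0.05: Has2, Cemip and Ugdh in both genotypes and Tmem2 in KO.

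Groups whose libraries did not overlap in TMM-scaled CPM were seen for Has2, Hyal2, Cemip, Tmem2 and Ugdh in both genotypes, 5 of 8 tested genes in each, beside 46.7% of all genes tested in WT and 49.4% in KO.

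Whether the genotype mattered was asked in control cells, after TGF-β2, and for the response itself. None of the 8 tested genes was called in any of these 3 comparisons, in which edgeR called 0% of all genes. Nox4 itself was not called between genotypes either, at a log2 fold change of -0.99 in control and -1.17 after TGF-β2. The lack of a call here therefore does not show that a gene was equal in the genotypes. At an unadjusted p under 0.05, edgeR had 597 of 10767 genes in control, 337 of 10439 after TGF-β2 and 292 of 10890 for the interaction of genotype and TGF-β2, and DESeq2 called 28, 16 and 6 genes, none of them among the 8. Of the 8 genes, 1 had an unadjusted p under 0.05 in control, 1 after TGF-β2 and 0 for the interaction, beside 5.54%, 3.23% and 2.68% of all genes.

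In control cells, Tmem2 was lower in every KO library than in every WT library (log2 fold change -0.31, SE 0.09, edgeR unadjusted p = 0.0107, adjusted p = 0.828). Has2 also had no overlap between KO and WT control libraries in TMM-scaled CPM (log2 fold change -0.29, SE 0.18, edgeR adjusted p = 0.828), and without KO control replicate 3 the value was -0.10. These 2 of 8 genes stand beside 12% of all genes without overlap in control. After TGF-β2, Cemip was higher in every KO library than in every WT library (log2 fold change 0.44, SE 0.17, edgeR unadjusted p = 0.0337, adjusted p = 0.838), 1 of 8 genes beside 10.4% of all genes. Without WT TGF-β2 replicate 2 the Cemip value was 0.29. Cemip (chromosome 7, 83932857 to 84086502, GRCm38) lies 3.16 Mb from Nox4, so an effect of the deletion and one of linked DNA of the donor strain cannot be told apart for this gene.

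The TGF-β2 response of Has2 was 0.49 larger in KO than in WT on the log2 scale (95% confidence interval -0.18 to 1.16, edgeR unadjusted p = 0.135, adjusted p = 0.854), and 0.28 without KO control replicate 3. The latter fit kept the stimulated library of that number, and neither fit paired libraries by number. Under 7 other settings, which include a replicate block, the Has2 difference lay between 0.44 and 0.49 and was not called. For Cemip the fall was 0.41 smaller in KO (-0.04 to 0.86, edgeR unadjusted p = 0.0729, adjusted p = 0.854), and for Tmem2 the rise was 0.38 larger (-0.14 to 0.91, edgeR adjusted p = 0.854). Without WT TGF-β2 replicate 2 these Cemip and Tmem2 differences were 0.25 and 0.19. The difference was 0.11 for Cd44 (-0.53 to 0.75, and between -0.057 and 0.27 with 1 library left out) and -0.09 for Ugdh (-0.37 to 0.19, and between -0.15 and -0.013). For Hyal1, whose counts are uncertain, it was 0.50 (-0.38 to 1.39, and between 0.25 and 0.74 with 1 library left out). These intervals do not show that the genotypes respond alike.

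The wider pathway was read from 5 lists of other genes. The sugar supply list holds 8 genes of UDP-sugar synthesis, of which 7 were tested. In WT, 2 rose, namely Gfpt2, whose product sets the pace of the hexosamine pathway (log2 fold change 0.72, edgeR adjusted p = 0.0377), and Pgm3, which acts further along it (0.31, adjusted p = 0.0372). In KO, 3 rose, Gfpt1 (0.52, edgeR adjusted p = 0.00454), Gfpt2 (0.83, adjusted p = 0.00926) and Pgm3 (0.41, adjusted p = 0.0123), and 1 fell, Nagk, a salvage kinase for N-acetylglucosamine (-0.42, adjusted p = 0.0114). The 2 of 7 called in WT stand beside 22.6% of all genes and the 4 of 7 in KO beside 30%. Without WT TGF-β2 replicate 2, Gfpt1 (0.37, edgeR adjusted p = 0.0139) and Nagk (-0.38, adjusted p = 0.0294) were called in WT too, which made 4 of 7 beside 31.6% of all genes. The median log2 fold change of the tested list was 0.14 in WT and 0.18 in KO.

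Of 8 other breakdown genes, 3 were tested, and the further hyaluronidase genes were too low. None was called in WT (0 at an unadjusted edgeR p under 0.05 and 0 adjusted). In KO, 2 fell, both of lysosomal enzymes that trim hyaluronan fragments: Hexa (-0.58, edgeR adjusted p = 0.00887) and Gusb (-0.30, adjusted p = 0.0330). The 2 of 3 in KO stand beside 30% of all genes called and the 0 of 3 in WT beside 22.6%. The WT values were -0.36 for Hexa and -0.23 for Gusb.

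Of 7 other receptor genes, 4 were tested in WT and 3 in KO. In WT, 2 fell: Layn, which encodes layilin (-0.59, edgeR adjusted p = 0.0281), and Tlr4, an innate immune receptor that senses hyaluronan fragments (-1.15, adjusted p = 0.0214). These 2 of 4 stand beside 22.6% of all genes called in WT, and the 0 of 3 in KO beside 30%. In KO, 0 were called without the block, with 2 at an unadjusted edgeR p under 0.05, and 3 fell with it, Layn (-0.41, edgeR adjusted p = 0.00141), Tlr4 (-0.73, adjusted p = 0.0184) and Hmmr (-0.82, adjusted p = 0.00867), where 54% of all genes were called. Hmmr is also a mitotic gene. Without both libraries of KO replicate 3, Layn (-0.41, edgeR adjusted p = 0.0261) and Tlr4 (-0.46, adjusted p = 0.0206) were called lower in KO, beside 39.3% of all genes.

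Of 16 genes for matrix proteins that bind or cross-link hyaluronan, 3 were tested. Ptx3, which encodes a pentraxin that cross-links hyaluronan through TSG-6-modified chains, had 112, 120 and 162 RPKM in WT control and 4.80, 10.0 and 12.4 RPKM in WT TGF-β2. In KO it had 95.9, 113 and 120 RPKM in control and 4.13, 6.21 and 15.0 RPKM after TGF-β2. It fell by 3.82 on the log2 scale in WT (edgeR adjusted p = 0.00113) and by 3.62 in KO (adjusted p = 0.00565). Hapln4, a link protein gene, was not called in WT (log2 fold change 0.88, edgeR adjusted p = 0.0535), but was without WT TGF-β2 replicate 2 (0.99, edgeR adjusted p = 0.0468). In KO, with 0.732 RPKM in control and 1.29 RPKM after TGF-β2, it passed the limit only through the stimulated group, and its KO value of 0.90 is a description. Vcan, the gene of the hyaluronan-binding proteoglycan versican, was not called in WT (-0.59, edgeR adjusted p = 0.211) or KO (-0.04, adjusted p = 0.847), and its WT value was -0.29 without WT TGF-β2 replicate 2.

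All 5 genes of proteins that tie CD44 to the cytoskeleton were tested. In WT, 1 rose, Msn, which encodes moesin (0.61, edgeR adjusted p = 0.0249). In KO, Msn (0.72, edgeR adjusted p = 0.00260) and the scaffold gene Iqgap1 (1.00, adjusted p = 0.00312) rose and Ezr, which encodes ezrin, fell (-0.96, adjusted p = 0.0187). The 1 of 5 in WT stands beside 22.6% of all genes called and the 3 of 5 in KO beside 30%. Without WT TGF-β2 replicate 2, Iqgap1 (0.81, edgeR adjusted p = 0.00780) and Ezr (-1.26, adjusted p = 0.0182) were called in WT in the same directions, 3 of 5 beside 31.6% of all genes. Without both libraries of KO replicate 3 Ezr was not called in KO (-0.97, edgeR adjusted p = 0.0548), whereas Rdx was (0.26, adjusted p = 0.0186), 3 of 5 beside 39.3% of all genes. None of the genes of the 5 lists was called between the genotypes.

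**Figure D5:**
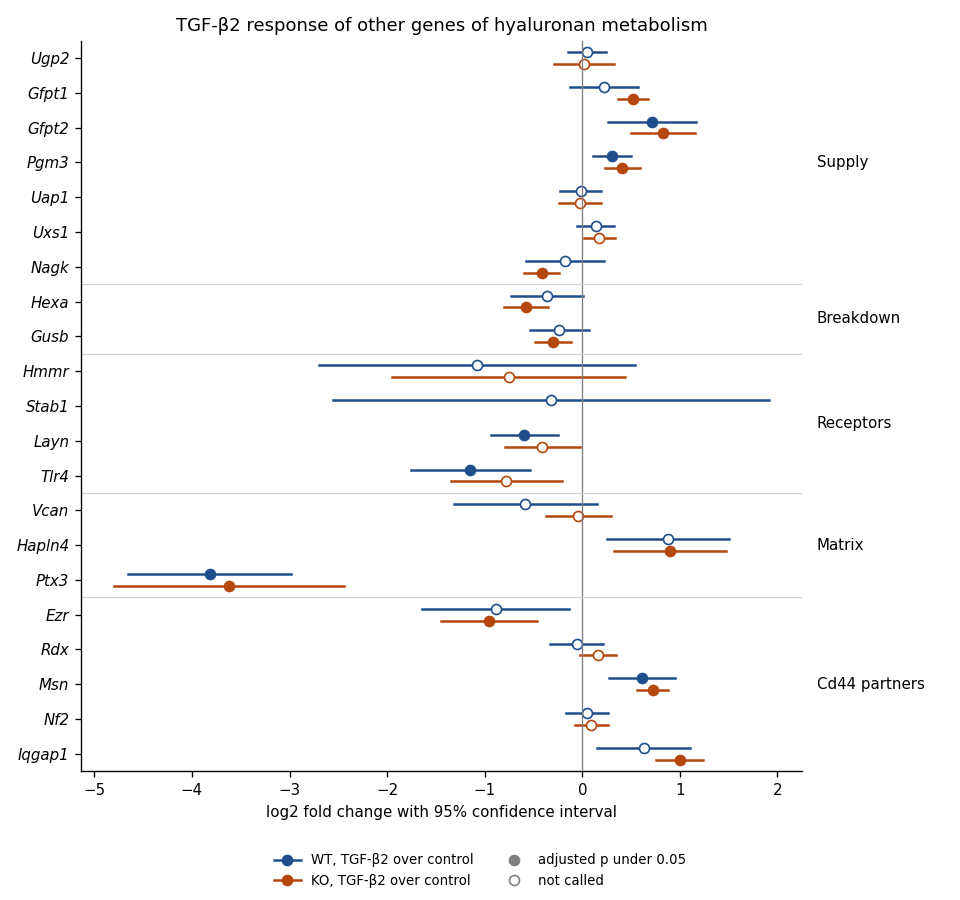
Log2 fold change of TGF-β2 over control with its 95% confidence interval (edgeR, 3 libraries against 3) for tested genes of the 5 further lists, in WT (blue) and KO (orange). Filled points have an adjusted p under 0.05. Ptx3 lies farthest from 0, at -3.82 and -3.62, and the other filled points lie between -1.15 and 1.00, among them Hapln4 in KO, which passed the RPKM limit only through the stimulated group.

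Across the 12 libraries, the genes whose log2 level followed Has2 most closely among 10889 others were Bhlhe40 (Pearson r = 0.99), Ythdf2 (0.99), Ncam1 (0.98), Mdga1 (0.98) and Tec (0.98). These 12 points fall into stimulated and control libraries, so such values mainly describe the shared difference between conditions. After the group means were subtracted, the closest were Ksr1, Nmnat2, Rnf40, Irf2bp2 and Cilp (r from 0.97 to 0.98). On this scale Has1 and Has2 had r = 0.93, Has1 and Cd44 r = 0.88 and Has2 and Cd44 r = 0.74, and Hyal2 and Tmem2 had r = -0.80. The points of each pair come from the same 12 libraries, and those of KO replicate 3 and of WT TGF-β2 replicate 2 lie at the ends of these relations. The values are a description of how the libraries deviate, with no test.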

How the data were processed

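RNA was sequenced from 12 libraries of primary mouse skin fibroblasts, 3 in each of 4 groups, which were taken with their replicate numbers from the sample labels. The authors deposited raw counts of reads per gene. Reads were single-end and 50 nt long. Per the submitters' processing notes they were handled with CASAVA 1.8.2, STAR 2.4 and featureCounts 1.4.6 on GRCm38, and per the methods reads with more than 1 location were discarded and merged exons of protein-coding isoforms were counted. Strand use is not stated. All 21556 genes were matched by Ensembl identifier to GENCODE (GRCm38), and 0 columns lacked a sample.

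RPKM was computed from count, merged exon length and library total. Each comparison was fitted on its own 6 libraries and the interaction on all 12, with R 4.3.3 and edgeR 4.0.16 (quasi-likelihood test, TMM, library sizes over kept genes), after a filter of 1 RPKM in at least 1 group. The SE was derived from the F statistic. Permutation tests used log2(CPM + 0.5). The procedure was tested on simulated data. DESeq2 1.42.0, other normalizations and filters, a fit over all 12 libraries, a replicate block and the removal of each library were alternatives. The correlation of deviations from the group mean between same-numbered libraries was 0.764, 0.688 and 0.741 in KO, so numbers pair the KO libraries, and 0.065, 0.413 and 0.523 in WT, where the first does not reach 0.1. A count of 0 allows up to 3 reads, and such limits cover counting error only. The 10 genes, the 5 lists and the tests were chosen with earlier results of these data known. The text names all 10 genes, the called genes of each list and the 5 genes most like Has2. Hmmr, Rdx, Vcan and 5 marker genes, which the rule does not take, were named after their values were seen. Fits without both libraries of KO replicate 3, and the list counts without WT TGF-β2 replicate 2 or with the KO block, were added after seeing the data. Some listed genes are not reported here. Promoters were RefSeq entries of GRCm38.p6.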

Additional observations from a re-analysis of the deposited data

How the results depend on the processing

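Under all alternatives, Has2 remained called higher and Cemip called lower with TGF-β2 in both genotypes, Tmem2 higher in KO and Ugdh lower in KO. The calls that changed were those of Ugdh and Tmem2 in WT and of Cd44 and Hyal2 in KO, given above. The WT replicate block changed none of them (3 of the 8 genes and 3080 of all genes called), and the KO block called 6 of the 8 and 5842 of all genes, against 3243 without it and 4244 without both libraries of KO replicate 3. In the genotype and interaction comparisons the block called 0 genes. Between genotypes it joined KO and WT libraries of the same number, which are not shown to be pairs. Deviations of these libraries correlated at 0.203, 0.010 and 0.315 in control and at 0.299, -0.182 and 0.238 after TGF-β2. Leaving out 1 library at a time, 1232 to 3399 genes were called in WT (1325, 1376 and 1437 without control replicates 1, 2 and 3, 1232 without stimulated replicate 1 and 3399 without stimulated replicate 2), 1134 to 3511 in KO (1616 and 1783 without control replicates 1 and 2, 1779 and 1134 without stimulated replicates 1 and 2), 0 to 1 between genotypes in control and 0 to 1 after TGF-β2. Of the 8 genes, 2 to 4 were called in WT and 4 to 4 in KO. DESeq2 called 28 genes between genotypes in control, 16 after TGF-β2 and 6 for the interaction, and the edgeR fit over all 12 libraries called 1 in control.

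The log2 fold changes that changed sign were all of genes not called. For Has1 with TGF-β2 in KO, it was -0.049 with library size alone, -0.033 with upper-quartile scaling and -0.026 without both libraries of KO replicate 3. Between genotypes in control, Cd44 was 0.033 with library size alone and 0.031 with upper-quartile scaling, and Has1 was 0.0017 with the latter. For the interaction, Has1 was 0.030 with the replicate block. With 1 library left out, Has1 lay between -0.048 and 0.23 in WT and between -0.29 and 0.39 in KO with TGF-β2, between -0.39 and 0.29 between genotypes in control, between -0.27 and 0.18 after TGF-β2 and between -0.38 and 0.32 for the interaction. Hyal1 lay between -0.042 and 0.39 with TGF-β2 in KO and between -0.34 and 0.11 between genotypes in control. Cemip lay between -0.046 and 0.11 between genotypes in control. Cd44 lay between -0.16 and 0.14 between genotypes in control, between -0.026 and 0.26 after TGF-β2 and between -0.057 and 0.27 for the interaction. Tmem2 lay between -0.12 and 0.23 and Hyal2 between -0.17 and 0.092 between genotypes after TGF-β2, and Hyal2 between -0.25 and 0.0040 for the interaction. The causes were not tested. Depth limits Has3 and Tnfaip6, with under 100 reads in every library.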
